A study of Saccharomyces cerevisiae with 12 samples.

Results

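The autophagy genes of Saccharomyces cerevisiae and the vacuolar hydrolases that finish the breakdown were followed across 4 strains treated with dithiothreitol (DTT). A gene was taken when its symbol was ATG followed by a number, or was PEP4, PRB1, PRC1, APE1, CPS1, LAP3 or AMS1. This gave 41 genes, 34 ATG genes and 7 others, of 5449 S. cerevisiae genes on the array. Each of the 41 was read by 1 probe set. ATG42, ATG44 and ATG45 had no probe set assigned and were not analysed here. The choice used gene names only, but it was made with earlier results of these data known.

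Autophagy encloses cytoplasm in a double membrane, the autophagosome, and empties it into the vacuole, the lysosome of yeast. The Atg1 kinase complex starts the process, vesicles with Atg9 and a phosphatidylinositol 3-kinase build the membrane, and a pair of ubiquitin-like proteins, Atg8 and Atg12, are conjugated to extend it. Receptors such as Atg19, Atg32 and Atg39 choose cargo, and the protease Pep4 activates the other vacuolar proteases. ER stress, which DTT causes by reducing disulfide bonds, is known to induce autophagy in yeast, including the selective engulfment of ER.

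The 4 strains were hac1∆(hsf1), WT(hsf1), hac1∆ and WT, with 3 biological replicates each and 1 array per replicate. By its name hac1∆ lacks HAC1, which encodes the activator of unfolded protein response genes. What (hsf1) stands for is not given in the labels, nor whether it is the same change in both strains. All cultures grew in medium without uracil (SD-URA) to early exponential phase and received 2.5 mM DTT for 2 h. Every culture had DTT, so nothing here measures a response to DTT. In RNA from whole cultures, fewer expressing cells and less RNA per cell cannot be told apart. RNA levels say nothing of autophagic flux or protease activity, which were not measured.

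The arrays matched the strain names for HAC1, which was at 5.21 to 5.31 on the 6 arrays of the hac1∆ strains, under the background of 5.49, against 10.37 to 10.86 on the other 6. HSF1 had log2 signals of 10.54, 10.81 and 10.66 in hac1∆(hsf1), 8.63, 8.51 and 8.41 in WT(hsf1), 7.75, 7.86 and 7.87 in hac1∆ and 8.08, 9.61 and 8.11 in WT. WT replicate 2 thus stood apart from the other WT arrays in HSF1. Across all genes it correlated at 0.988 to 0.990 with the other WT arrays and at 0.973 to 0.978 with the hac1∆(hsf1) arrays, while the other WT arrays correlated at 0.939 to 0.951 with hac1∆(hsf1). It was thus closer to hac1∆(hsf1) than the other WT arrays were, though closer still to WT, and whether it carries its right label was not tested. WT enters every comparison but those of hac1∆(hsf1) with hac1∆ and with WT(hsf1). WT replicate 2 was also the highest of the 3 WT arrays for 22 of the 41 genes. Each call on the 41 genes that it changes is given without it. Of the mating genes, used as cell type markers, the a-cell genes MFA1, MFA2 and STE2 were at 8.62 to 10.46 on all arrays, and the alpha-cell genes MF(ALPHA)2 and STE3 were at 5.24 to 5.40 and 6.56 to 6.91. MF(ALPHA)1, also an alpha-cell gene, was at 6.002, 5.96 and 5.81 in hac1∆(hsf1), 6.34, 6.72 and 6.88 in WT(hsf1), 6.12, 6.17 and 6.22 in hac1∆ and 8.17, 8.45 and 8.88 in WT, and its part in the results below was not tested. The other a-cell genes, BAR1 and ASG7, were at 7.09 to 8.43 and 6.45 to 6.95, and the other alpha-cell gene, SAG1, at 6.75 to 7.10.

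All values are log2 signals as deposited, and each difference is a log2 fold change ± its standard error (SE), taken from 1 limma fit to the 12 arrays. A gene was called when its Benjamini-Hochberg adjusted p over the 5449 genes was under 0.05. Signals below 5.49, the 95th percentile of the probe sets listed for genes absent from the reference table of S. cerevisiae, were taken as background. ATG16, whose product joins the Atg5 and Atg12 conjugate, was under it on 11 of 12 arrays and its changes are not read. It stays among the 41.

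The main pattern was a low level of these genes in WT(hsf1). WT(hsf1) had the lowest mean of the 4 strains for 36 of the 41 genes (87.8%), against 39.3% of all genes. hac1∆(hsf1) had the highest mean for 23 of them (56.1%), against 31.4% of all genes. On each array the deviation of a gene from its own mean over 12 arrays had a median over the 41 genes of 0.18, 0.23 and 0.15 in hac1∆(hsf1), −0.39, −0.37 and −0.33 in WT(hsf1), 0.02, 0.09 and 0.06 in hac1∆, and 0.09, 0.18 and 0.10 in WT. The arrays of WT(hsf1) did not overlap with any other array in this median. Over all genes the same median lay between −0.03 and 0.02 on every array.

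**Figure D1:**
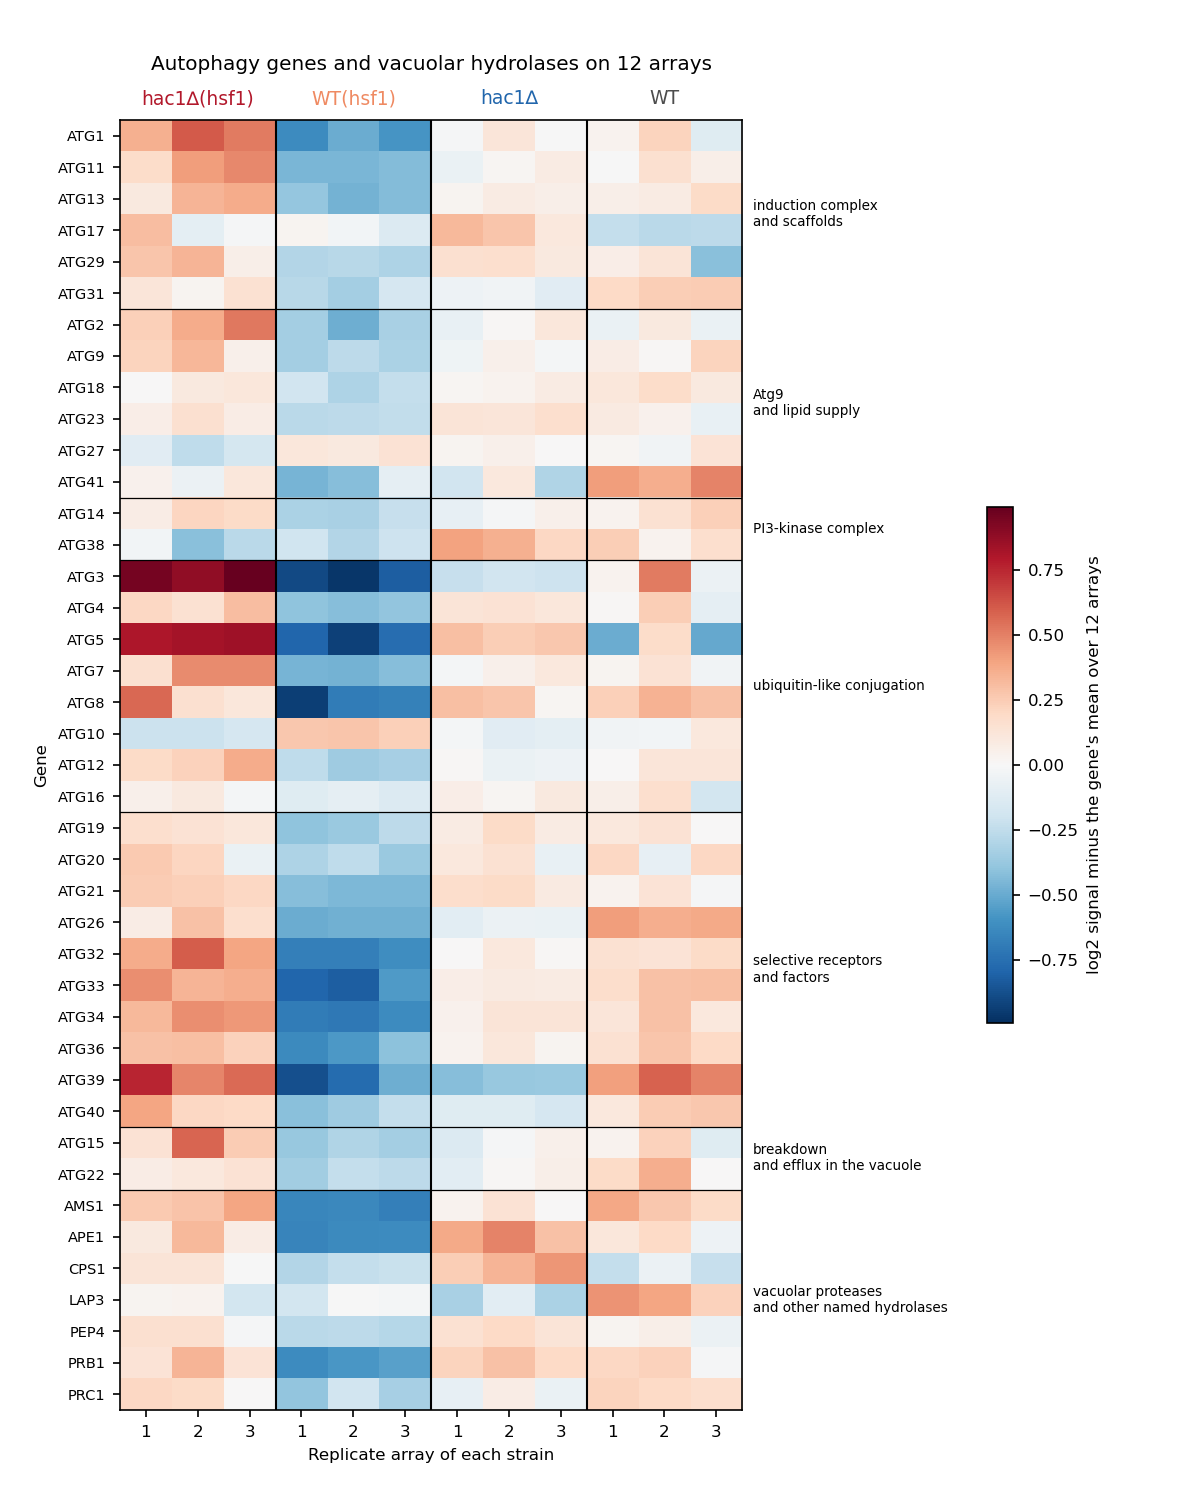
Log2 signal of each of the 41 genes (rows, grouped by role) on each of the 12 arrays (columns, 3 replicates per strain), as the difference from the gene's mean over all arrays, blue for lower and red for higher. The 3 WT(hsf1) columns are blue in nearly all rows, with ATG10 and ATG27 as exceptions. ATG17 is above its mean on WT(hsf1) replicate 1 only.

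In WT(hsf1) 35 of the 41 genes were lower than in WT and 1 was higher, with a median change of −0.49. Of all genes 33.8% were called lower and 32.3% higher, with a median of −0.01. The replicates of WT(hsf1) and WT did not overlap for 35 of the 41 in the lower direction, where 37% of all genes had that pattern. ATG39, a receptor for engulfment of the ER and nuclear envelope, fell by 1.20 ± 0.09 (limma adjusted p = 1.29e-07). ATG8, the ubiquitin-like protein that coats the forming membrane, fell by 1.06 ± 0.12 (adjusted p = 3.85e-06), and ATG3, the conjugating enzyme that attaches Atg8 to lipid, by 1.06 ± 0.11 (adjusted p = 2.52e-06). These 3 were the members lowered by at least 2-fold, as were 3.95% of all genes. ATG33, a mitochondrial protein needed for mitophagy, and AMS1, the vacuolar alpha-mannosidase, followed with decreases of 0.97 and 0.94. The gene that rose was ATG10, the conjugating enzyme for Atg12, at 0.25 ± 0.05 (adjusted p = 0.000558). Not called were ATG17 (0.21), ATG27 (0.08), CPS1 (−0.07), ATG16 and ATG29 (−0.22). Without WT replicate 2 the counts were still 35 lower and 1 higher. ATG17 was called higher without hac1∆(hsf1) replicate 1 or 2, at 0.21, and ATG29 lower without WT replicate 3, at −0.39.

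In the strains without HAC1 more genes were higher than lower with (hsf1). Against hac1∆, hac1∆(hsf1) had 21 of the 41 genes higher, 4 lower and 16 not called, with a median of 0.16. Of all genes 26.5% were called higher and 30.7% lower, with a median of −0.01. ATG3 rose by 1.15 ± 0.11 (limma adjusted p = 3.05e-06), ATG39 by 0.99 ± 0.09 (adjusted p = 2.31e-06) and ATG5, which carries Atg12, by 0.55 ± 0.14 (adjusted p = 0.00427). ATG1, the kinase that starts autophagy, rose by 0.46 ± 0.08 and ATG32, the mitophagy receptor, by 0.41 ± 0.06. The 4 that fell were ATG38 (−0.55), a subunit of the phosphatidylinositol 3-kinase complex, CPS1 (−0.25), a vacuolar carboxypeptidase, APE1 (−0.22), a vacuolar aminopeptidase, and ATG27 (−0.21), which helps Atg9 traffic. ATG3 was the only one of the 41 to rise by 2-fold here, as did 2.59% of all genes. Without WT replicate 2, ATG10 was also called lower, at −0.12.

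Several of the small changes between hac1∆(hsf1) and hac1∆ lost their call when any 1 of several arrays was left out. On leaving out hac1∆ replicate 1 the count of genes higher was 16, and the range over the 12 arrays left out in turn was 16 to 22. The call of ATG9 ended (0.14 to 0.20) without any 1 of hac1∆ replicates 1 and 3 and hac1∆(hsf1) replicates 1 and 2. That of ATG14 ended (0.14 to 0.18) without any 1 of hac1∆ replicates 1 and 2 and hac1∆(hsf1) replicates 2 and 3. That of LAP3 ended (0.17 to 0.21) without any 1 of hac1∆ replicates 1 and 3, hac1∆(hsf1) replicates 1 and 2, and WT(hsf1) replicates 2 and 3. ATG13 ended without hac1∆ replicate 1 or hac1∆(hsf1) replicate 2 or 3 (0.16 to 0.20), ATG31 without hac1∆ replicate 3 or hac1∆(hsf1) replicate 3 (0.14), and ATG15 without hac1∆ replicate 1 (0.31), while without hac1∆(hsf1) replicate 2 ATG15 was called at 0.23. APE1 ended without hac1∆ replicate 1 or 2 or hac1∆(hsf1) replicate 1 or 3 (−0.23 to −0.17). Same-numbered arrays of these strains deviated together, and with the replicate number as a block PRC1 was also called higher, at 0.16 (limma adjusted p = 0.0363, against 0.0628 with no block).

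**Figure D2:**
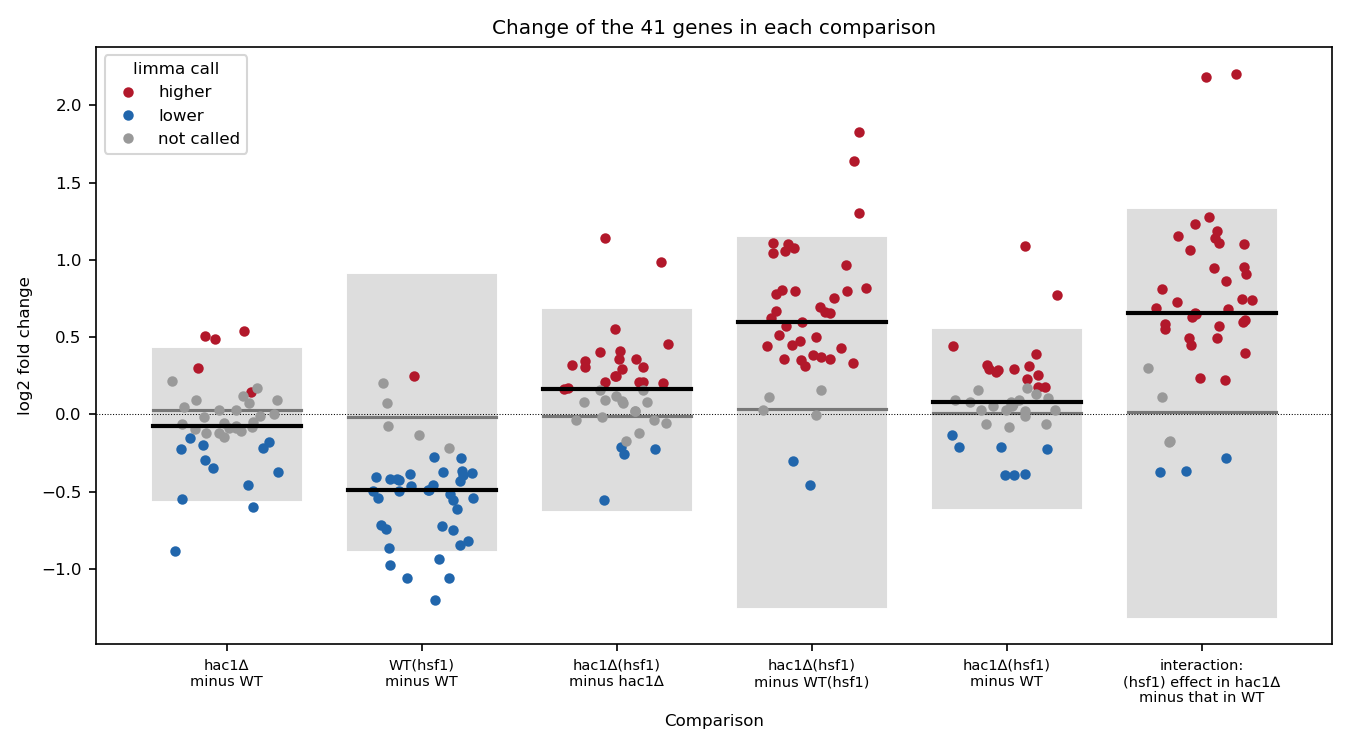
Log2 fold change of each of the 41 genes (points, coloured by the limma call) in the 6 comparisons. Black bars give the median of the 41 and grey boxes the 5th to 95th percentile of all 5449 genes with their median as a grey line. The median of the 41 was −0.49 for WT(hsf1) minus WT and 0.66 for the interaction.

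Whether hac1∆(hsf1) differed from hac1∆ by the same amount as WT(hsf1) from WT was tested as an interaction, hac1∆(hsf1) minus hac1∆ less WT(hsf1) minus WT. It was called positive for 34 of the 41 genes and negative for 3, with a median of 0.66. Of all genes 35.7% were called positive and 34% negative, 69.6% in all. The largest were ATG3 at 2.20 ± 0.16 (limma adjusted p = 6.29e-08) and ATG39 at 2.19 ± 0.13 (adjusted p = 1.21e-08). A call in both strains, lower in WT(hsf1) than in WT and higher in hac1∆(hsf1) than in hac1∆, was made for 21 genes (51.2%), against 15.7% of all genes. The differences in these comparisons share no array, but both calls use 1 estimate of the spread from all 12 arrays. A further 12, among them ATG8, PEP4, PRB1 and PRC1, were called lower in WT(hsf1) and not called in hac1∆(hsf1). ATG38 and APE1 were lower in both. The 3 negative interactions were ATG17 (−0.38), ATG10 (−0.36) and ATG27 (−0.28), and that of ATG17 was not called without WT(hsf1) replicate 1 or hac1∆ replicate 1 (−0.34 and −0.33). Without WT replicate 2, the interaction of CPS1 was also called, at −0.24. HSF1 itself was at 2.84 in hac1∆(hsf1) against hac1∆ and at −0.08 in WT(hsf1) against WT, with an interaction of 2.92. The HSF1 value in WT(hsf1) against WT, and so its interaction, depended on WT replicate 2, and the former changed sign without it. The labels do not say that the 2 comparisons hold the same change.

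**Figure D3:**
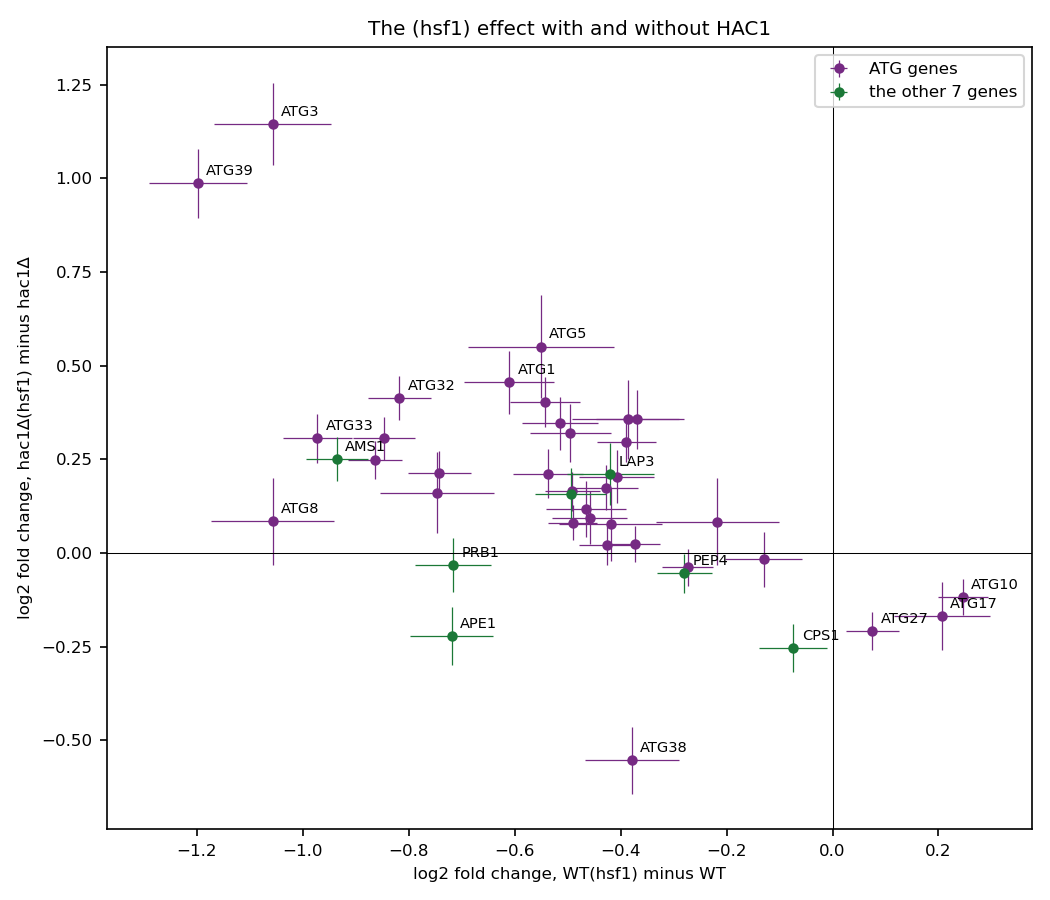
Log2 fold change of hac1∆(hsf1) minus hac1∆ (vertical axis) against WT(hsf1) minus WT (horizontal axis) for the 41 genes, with bars of 1 SE. Most points lie in the upper left quadrant, with ATG3 and ATG39 farthest out, and ATG38 lies low on both axes.

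Between hac1∆ and WT the directions were mixed. In hac1∆ 5 of the 41 genes were higher than in WT, 12 were lower and 24 were not called (median −0.08). Of all genes 28.4% were called higher and 22.3% lower (median 0.03). ATG39 fell by 0.88 ± 0.09 (limma adjusted p = 9.91e-06) and LAP3, a cytosolic cysteine aminopeptidase, by 0.60 ± 0.08 (adjusted p = 8.69e-05). ATG41, which acts with Atg9, fell by 0.55 ± 0.11 and ATG26, a sterol glucosyltransferase, by 0.46 ± 0.05. ATG40, the receptor for cortical ER, fell by 0.35 ± 0.07, and ATG31 of the Atg17 scaffold by 0.30 ± 0.05. The genes that rose were ATG5 (0.54 ± 0.14, adjusted p = 0.00596), CPS1 (0.51 ± 0.06, adjusted p = 4.42e-05), ATG17 (0.49 ± 0.09), APE1 (0.30 ± 0.08) and PEP4 (0.15 ± 0.05). No member changed by 2-fold, as 0.22% of all genes did upward and 1.63% downward.

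WT replicate 2 weighed on this comparison. Without it 8 genes were higher, with ATG4 (0.17), ATG21 (0.14) and ATG29 (0.31) added, and 9 were lower, since ATG14 (−0.15), ATG22 (−0.11) and ATG33 (−0.16) were no longer called. ATG3, at −0.37 with all arrays, was at −0.20 without it and still called. The call of ATG22 ended on leaving out any array but WT replicate 3 or hac1∆ replicate 3 (−0.21 to −0.11), and that of ATG14 on leaving out any but WT replicate 1, hac1∆ replicate 3 or hac1∆(hsf1) replicate 1 or 2 (−0.16 to −0.11). ATG33 also ended without WT replicate 3 or any hac1∆ array (−0.18 to −0.16), and PEP4 ended without WT replicate 1 or 3 or hac1∆ replicate 1 or 2 (0.11 to 0.16). PRC1, at −0.22, ended without hac1∆ replicate 1 or 3 (−0.19 and −0.20). The number lower was 8 without hac1∆ replicate 1.

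Between the (hsf1) strains nearly all of these genes were higher without HAC1. Against WT(hsf1), hac1∆(hsf1) had 35 of the 41 genes higher, 2 lower and 4 not called (median 0.60), while 41.7% of all genes were called higher and 35.8% lower. This comparison shares the WT(hsf1) arrays with that of WT(hsf1) and WT. ATG3 rose 3.56-fold (1.83 ± 0.11, limma adjusted p = 8.3e-09), ATG5 3.12-fold (1.64 ± 0.14, adjusted p = 1.84e-07) and ATG39 2.47-fold (1.30 ± 0.09, adjusted p = 3.61e-08). With ATG32, ATG33, ATG34, ATG1 and ATG8, at 1.11, 1.10, 1.08, 1.06 and 1.05, 8 members were at least 2-fold higher, against 6.44% of all genes. ATG10 and ATG27 fell, by 0.45 and 0.30, and LAP3, ATG38, ATG17 and ATG16 were not called, though ATG16, still under background, was called at 0.16 without WT replicate 2. ATG15, the vacuolar lipase, was under background on all 3 WT(hsf1) arrays and was at least 1.53-fold higher in hac1∆(hsf1).

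Set against WT, hac1∆(hsf1) differed in 21 genes. In hac1∆(hsf1) 14 of the 41 were higher than in WT, 7 lower and 20 not called (median 0.08), while 29% of all genes were called higher and 28.1% lower. ATG5 rose by 1.09 ± 0.14 (limma adjusted p = 4.17e-05) and ATG3 by 0.77 ± 0.11 (adjusted p = 9.74e-05). ATG1 rose by 0.45 ± 0.08, the lipid transfer protein gene ATG2 by 0.39 ± 0.08 and ATG7, the activating enzyme of both conjugation systems, by 0.32 ± 0.08. LAP3, ATG41 and ATG38 fell by 0.39, 0.39 and 0.38, and ATG27 and ATG26 by 0.22 and 0.21. ATG39, lower in both WT(hsf1) and hac1∆ than in WT, was at 0.11 ± 0.09 here and not called (adjusted p = 0.346). ATG12 was not called without WT replicate 1 or hac1∆(hsf1) replicate 3 (0.14 and 0.13), and ATG17 was called at 0.20 without hac1∆(hsf1) replicate 1. The calls of ATG15 (0.27), ATG29 (0.30) and ATG31 (−0.13) ended on leaving out any of 8, 9 and 9 of the 12 arrays, WT(hsf1) replicate 1 among them for each. Without WT replicate 2 there were 15 higher and 6 lower, ATG4 having been added at 0.26 and ATG31 lost at −0.13.

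Among the genes that start autophagy, ATG1 had signals of 8.11, 8.37 and 8.27 in hac1∆(hsf1), 7.14, 7.27 and 7.18 in WT(hsf1), 7.75, 7.88 and 7.76 in hac1∆, and 7.80, 7.98 and 7.64 in WT. All hac1∆(hsf1) arrays lay above all others and all WT(hsf1) arrays below. ATG13, the regulatory subunit that the nutrient-sensing kinase complex TORC1 phosphorylates, and ATG11, the scaffold of selective autophagy, also had their highest mean in hac1∆(hsf1) and their lowest in WT(hsf1), with −0.54 ± 0.07 and −0.51 ± 0.07 in WT(hsf1) against WT, and 0.21 ± 0.07 and 0.35 ± 0.07 in hac1∆(hsf1) against hac1∆. ATG17, the scaffold of bulk autophagy, had 7.54, 7.13 and 7.22 in hac1∆(hsf1), 7.26, 7.21 and 7.10 in WT(hsf1), 7.55, 7.51 and 7.34 in hac1∆, and 7.001, 6.97 and 6.98 in WT. The WT arrays were the lowest for ATG17, and the hac1∆(hsf1) arrays overlapped with those of WT(hsf1) and hac1∆. Its partners ATG31 and ATG29 had opposite signs to each other in hac1∆ against WT, where ATG17 was at 0.49 ± 0.09. ATG31 was at −0.30 ± 0.05, and ATG29 was at 0.21 ± 0.12 and not called, or at 0.31 and called without WT replicate 2. ATG29 was under background on 2 of 3 WT(hsf1) arrays and 1 of 3 WT arrays.

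ATG9, a membrane protein of the vesicles that seed the autophagosome, had 7.22, 7.33 and 7.06 in hac1∆(hsf1), 6.67, 6.74 and 6.69 in WT(hsf1), 6.96, 7.06 and 6.99 in hac1∆, and 7.08, 7.02 and 7.23 in WT. The WT(hsf1) arrays were below all others and the other strains overlapped. ATG2, which passes lipid to the growing membrane, had 7.19, 7.32 and 7.47 in hac1∆(hsf1), 6.62, 6.46 and 6.63 in WT(hsf1), 6.88, 6.97 and 7.06 in hac1∆, and 6.89, 7.05 and 6.89 in WT. It was highest on the hac1∆(hsf1) arrays, with no overlap. ATG18 and ATG23, which act with Atg2 and Atg9, were called only where WT(hsf1) entered the comparison, at −0.37 ± 0.05 and −0.27 ± 0.05 against WT. ATG41 had 9.73, 9.63 and 9.80 in hac1∆(hsf1), 9.23, 9.26 and 9.60 in WT(hsf1), 9.50, 9.79 and 9.39 in hac1∆, and 10.10, 10.05 and 10.18 in WT. Its WT arrays stood above all others. ATG27 had 8.86, 8.73 and 8.80 in hac1∆(hsf1), 9.09, 9.07 and 9.12 in WT(hsf1), 9.005, 9.03 and 8.99 in hac1∆, and 9.003, 8.95 and 9.11 in WT, and its hac1∆(hsf1) arrays were below all others. In the phosphatidylinositol 3-kinase complex, ATG38 had 7.27, 6.89 and 7.03 in hac1∆(hsf1), 7.10, 7.01 and 7.10 in WT(hsf1), 7.70, 7.66 and 7.50 in hac1∆, and 7.54, 7.34 and 7.47 in WT, highest in hac1∆ and WT and lower in both (hsf1) strains. ATG14, which directs the kinase to autophagy, was called lower in WT(hsf1) at −0.43 ± 0.06.

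**Figure D4:**
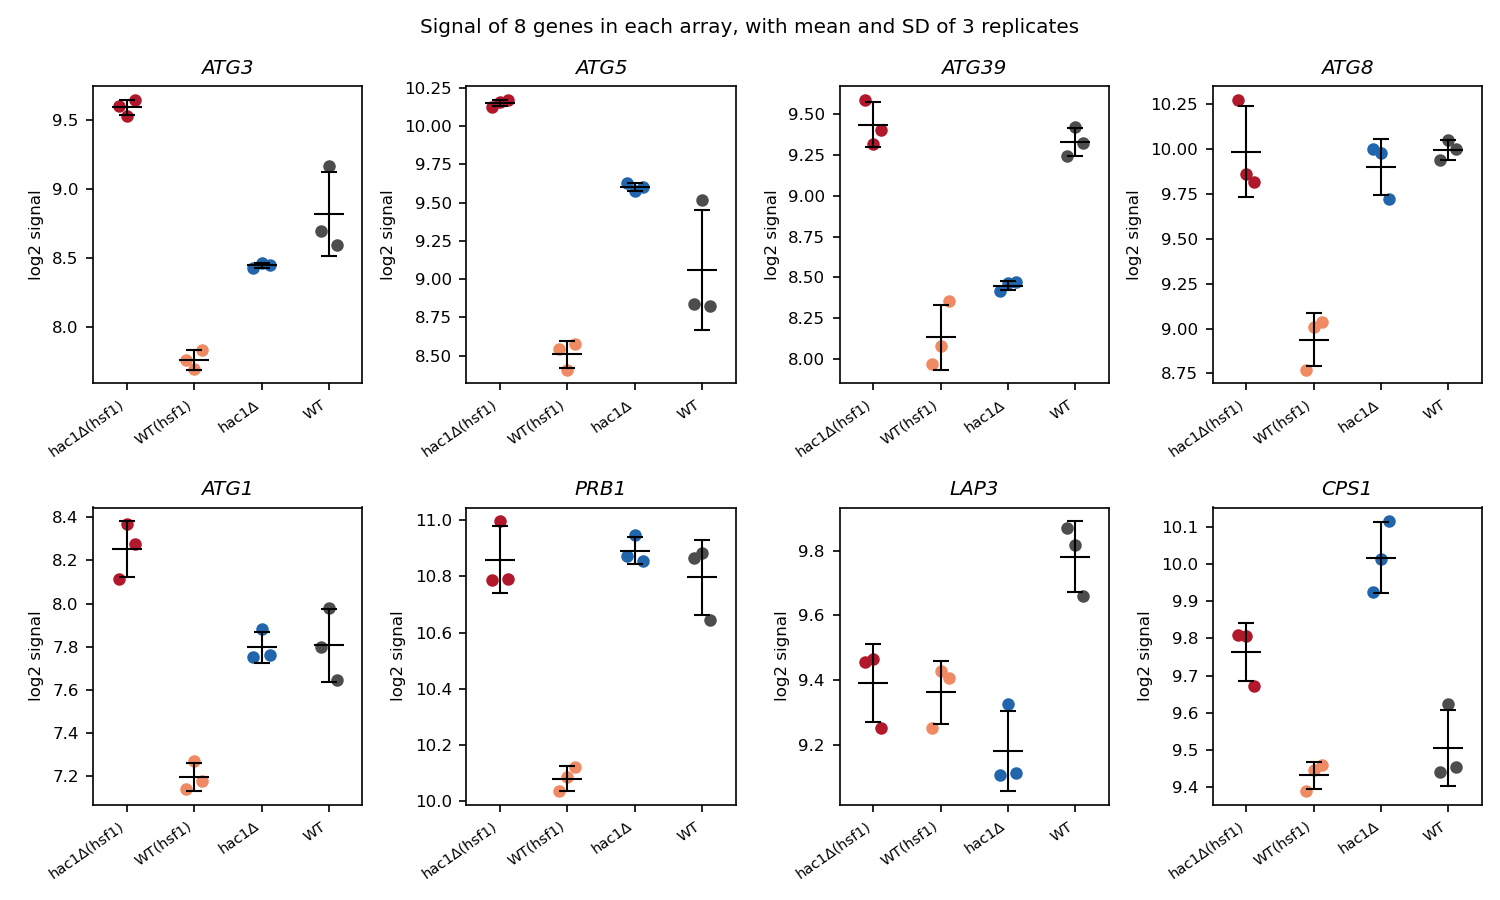
Log2 signal of 8 genes on each array (points), with the mean and SD of 3 replicates in black, for the 4 strains on axes that do not start at 0. ATG3 and ATG5 are highest in hac1∆(hsf1), PRB1 and ATG8 are lowest in WT(hsf1), and WT replicate 2 lies above the other WT arrays for ATG3 and ATG5.

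Among the conjugation genes the strain orders differed. ATG8 had 10.28, 9.86 and 9.82 in hac1∆(hsf1), 8.77, 9.01 and 9.03 in WT(hsf1), 10.002, 9.98 and 9.72 in hac1∆, and 9.94, 10.05 and 9.998 in WT. The WT(hsf1) arrays stood below all others, which overlapped. ATG3 had 9.60, 9.53 and 9.64 in hac1∆(hsf1), 7.76, 7.69 and 7.83 in WT(hsf1), 8.43, 8.46 and 8.45 in hac1∆, and 8.69, 9.17 and 8.60 in WT. The 4 strains did not overlap, in the order hac1∆(hsf1), WT, hac1∆ and WT(hsf1), and WT replicate 2 was the highest of the WT arrays. ATG5 had 10.13, 10.16 and 10.17 in hac1∆(hsf1), 8.54, 8.41 and 8.58 in WT(hsf1), 9.63, 9.58 and 9.60 in hac1∆, and 8.84, 9.51 and 8.83 in WT, also without overlap, in the order hac1∆(hsf1), hac1∆, WT and WT(hsf1). Without WT replicate 2, ATG5 was at −0.32 rather than −0.55 in WT(hsf1) against WT, and was still called. ATG7 had 7.56, 7.86 and 7.86 in hac1∆(hsf1), 6.93, 6.93 and 6.97 in WT(hsf1), 7.38, 7.45 and 7.50 in hac1∆, and 7.42, 7.54 and 7.36 in WT, and ATG10 had 7.06, 7.07 and 7.11 in hac1∆(hsf1), 7.54, 7.55 and 7.51 in WT(hsf1), 7.25, 7.17 and 7.18 in hac1∆, and 7.24, 7.25 and 7.38 in WT. The order of ATG10 was the reverse of that of ATG7, with WT(hsf1) highest and hac1∆(hsf1) lowest. ATG4, the protease that processes Atg8, was at −0.46 ± 0.07 in WT(hsf1) against WT, and ATG12 at −0.39 ± 0.06.

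WT(hsf1) had lower levels than WT of all 10 measured genes of selective receptors and factors, with a median of −0.78, and 7 of them were higher in hac1∆(hsf1) than in hac1∆. Of all genes 33.8% were called lower in the first comparison and 26.5% higher in the second. ATG39 had 9.59, 9.32 and 9.40 in hac1∆(hsf1), 7.97, 8.08 and 8.35 in WT(hsf1), 8.42, 8.46 and 8.47 in hac1∆, and 9.25, 9.42 and 9.33 in WT. Its arrays formed a high pair of strains, hac1∆(hsf1) and WT, and a low pair, hac1∆ and WT(hsf1). ATG40, also an ER receptor, was at 0.40 ± 0.07 in hac1∆(hsf1) against hac1∆ and at −0.54 ± 0.07 in WT(hsf1) against WT. ATG32 had 8.08, 8.31 and 8.10 in hac1∆(hsf1), 7.03, 7.03 and 7.09 in WT(hsf1), 7.72, 7.81 and 7.72 in hac1∆, and 7.86, 7.85 and 7.90 in WT, and ATG33 had 9.62, 9.50 and 9.53 in hac1∆(hsf1), 8.38, 8.35 and 8.61 in WT(hsf1), 9.23, 9.25 and 9.25 in hac1∆, and 9.34, 9.46 and 9.46 in WT. In both mitophagy genes the WT(hsf1) arrays were lowest and the hac1∆(hsf1) arrays highest, with no overlap. ATG26 had 8.18, 8.40 and 8.27 in hac1∆(hsf1), 7.62, 7.63 and 7.63 in WT(hsf1), 8.01, 8.05 and 8.05 in hac1∆, and 8.52, 8.47 and 8.48 in WT, where WT was highest. ATG36, the receptor for peroxisomes, was at −0.74 ± 0.06 and 0.21 ± 0.06 in the comparisons of WT(hsf1) with WT and of hac1∆(hsf1) with hac1∆.

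ATG19, the receptor that brings aminopeptidase I to the vacuole in growing cells, had 9.64, 9.62 and 9.59 in hac1∆(hsf1), 9.08, 9.11 and 9.22 in WT(hsf1), 9.56, 9.67 and 9.56 in hac1∆, and 9.59, 9.62 and 9.49 in WT. Outside WT(hsf1), its arrays spanned 9.49 to 9.67. Its paralog ATG34, which lies next to it on chromosome XV and carries alpha-mannosidase in starved cells, was at −0.85 ± 0.06 in WT(hsf1) against WT and at 0.31 ± 0.06 in hac1∆(hsf1) against hac1∆, where ATG19 was at −0.43 ± 0.05 and 0.02 ± 0.05. The difference between the paralogs was not tested. ATG20, a sorting nexin, and ATG21, a phosphoinositide-binding protein of the same route, were at −0.42 ± 0.10 and −0.49 ± 0.05 in WT(hsf1) against WT.

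Of the hydrolases, WT(hsf1) had 6 of 7 lower than WT, where 33.8% of all genes were called lower. In hac1∆(hsf1) against hac1∆, AMS1 and LAP3 were higher and CPS1 and APE1 lower, with a median of −0.03 over the 7. Of all genes 26.5% were called higher and 30.7% lower in that comparison. PRC1 was also called higher there with the replicate block. The call of LAP3 ended on leaving out any of 6 arrays, and that of APE1 any of 4. PEP4, proteinase A, had 11.32, 11.32 and 11.16 in hac1∆(hsf1), 10.90, 10.91 and 10.88 in WT(hsf1), 11.31, 11.36 and 11.29 in hac1∆, and 11.20, 11.22 and 11.11 in WT. PRB1, proteinase B, had 10.79, 10.997 and 10.79 in hac1∆(hsf1), 10.04, 10.08 and 10.12 in WT(hsf1), 10.87, 10.95 and 10.85 in hac1∆, and 10.86, 10.88 and 10.64 in WT, and PRC1, carboxypeptidase Y, had 10.81, 10.80 and 10.61 in hac1∆(hsf1), 10.22, 10.42 and 10.28 in WT(hsf1), 10.52, 10.68 and 10.54 in hac1∆, and 10.83, 10.80 and 10.77 in WT. For all 3 the WT(hsf1) arrays were the lowest. The hac1∆(hsf1) arrays overlapped with those of hac1∆ and WT in each. PRB1 fell by 0.72 ± 0.07 (limma adjusted p = 1.59e-06) in WT(hsf1) against WT, PRC1 by 0.49 ± 0.07 and PEP4 by 0.28 ± 0.05. APE1 had 9.94, 10.17 and 9.91 in hac1∆(hsf1), 9.19, 9.22 and 9.22 in WT(hsf1), 10.21, 10.33 and 10.13 in hac1∆, and 9.96, 10.04 and 9.79 in WT, and AMS1, like Ape1 a cargo of the route to the vacuole, had 9.88, 9.90 and 10.01 in hac1∆(hsf1), 8.98, 8.98 and 8.94 in WT(hsf1), 9.66, 9.77 and 9.62 in hac1∆, and 10.01, 9.89 and 9.81 in WT. APE1 had its highest mean in hac1∆, whereas the hac1∆ arrays of AMS1 lay below all WT and hac1∆(hsf1) arrays.

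CPS1 and LAP3 had other strain orders. CPS1 had 9.81, 9.81 and 9.67 in hac1∆(hsf1), 9.39, 9.45 and 9.46 in WT(hsf1), 9.92, 10.01 and 10.11 in hac1∆, and 9.44, 9.62 and 9.45 in WT. All hac1∆ arrays were above all others, and WT(hsf1) and WT overlapped. LAP3 had 9.46, 9.47 and 9.25 in hac1∆(hsf1), 9.25, 9.43 and 9.41 in WT(hsf1), 9.11, 9.32 and 9.11 in hac1∆, and 9.87, 9.82 and 9.66 in WT. All WT arrays were above the other 9, which overlapped. LAP3 fell by 0.42 ± 0.08 in WT(hsf1) and by 0.60 ± 0.08 in hac1∆, each against WT. In the vacuole membrane ATG22, an amino acid exporter, was at −0.47 ± 0.08 in WT(hsf1) against WT. ATG15 was under background in WT(hsf1), at least 1.27-fold lower than in WT.

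The genes of the cytosolic inhibitors of these proteases also fell in WT(hsf1), all 3 of 3 against WT, with a median of −1.37. Of all genes 33.8% were called lower there. PAI3, the inhibitor of proteinase A, had 8.72, 8.47 and 8.36 in hac1∆(hsf1), 7.06, 7.15 and 7.24 in WT(hsf1), 8.07, 8.14 and 7.98 in hac1∆, and 9.31, 8.98 and 9.36 in WT. It fell by 2.06 ± 0.11 in WT(hsf1) (limma adjusted p = 3.47e-09) and by 1.15 ± 0.11 in hac1∆ (adjusted p = 3.34e-06), both against WT. TFS1, the inhibitor of carboxypeptidase Y, had 11.20, 11.16 and 11.12 in hac1∆(hsf1), 9.70, 9.67 and 9.99 in WT(hsf1), 10.9997, 11.06 and 10.99 in hac1∆, and 11.12, 11.20 and 11.16 in WT, and its WT(hsf1) arrays were below all others. PBI2, the inhibitor of proteinase B, was at −0.89 ± 0.12 in WT(hsf1) and at −0.78 ± 0.12 in hac1∆, both against WT. In hac1∆(hsf1) against hac1∆ only PAI3 was called, at 0.45 ± 0.11. There PBI2 was also called without hac1∆(hsf1) replicate 3, at 0.32, and TFS1 without WT(hsf1) replicate 3, at 0.14.

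**Figure D5:**
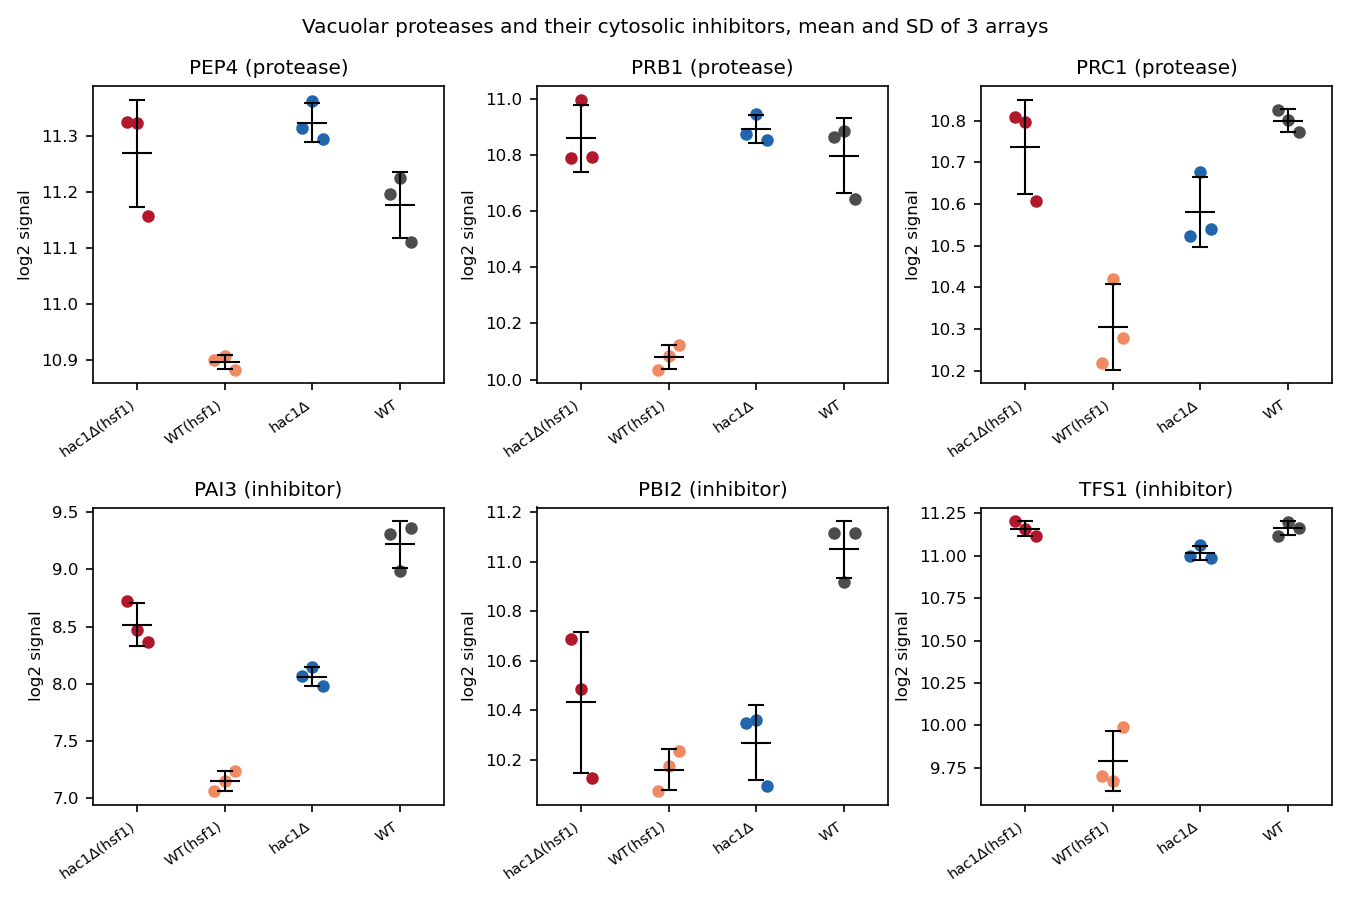
Log2 signal of 3 vacuolar protease genes (top) and the genes of their 3 cytosolic inhibitors (bottom) on each array (points) with the mean and SD of 3 replicates in black. Axes do not start at 0. PAI3 has its lowest value, 7.06, in WT(hsf1) and its highest, 9.36, in WT, while PEP4 lies between 10.88 and 11.36 on all arrays.

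Other pathway genes were counted from lists by role. Of all genes 32.3% were called higher and 33.8% lower in WT(hsf1) against WT, 26.5% and 30.7% in hac1∆(hsf1) against hac1∆, and 28.4% and 22.3% in hac1∆ against WT. Of 4 further vacuolar hydrolases, WT(hsf1) had all lower than WT, and 3 were higher in hac1∆(hsf1) than in hac1∆, with ATH1, the acid trehalase, at −0.73 and 0.42. Of 7 other genes of the PI3-kinase complexes, sorting nexins and receptors, 7 were lower in WT(hsf1) and 4 were higher and 1 lower in hac1∆(hsf1), and SNX4, a partner of Atg20, was at −0.61 and 0.23. That count was 4 lower without WT replicate 1 or WT(hsf1) replicate 3, and 2 higher without hac1∆ replicate 1 or 3 or hac1∆(hsf1) replicate 1. SNX4 itself was not called in hac1∆(hsf1) without hac1∆ replicate 3 (0.17) or hac1∆(hsf1) replicate 1 (0.13). Of the 15 genes of the vacuolar ATPase, which acidifies the vacuole, 7 (46.7%) were higher and none lower in WT(hsf1) than in WT, and 10 (66.7%) were lower and 1 higher in hac1∆(hsf1) than in hac1∆. VMA5 was at 0.21 and −0.56. Without WT(hsf1) replicate 2, 4 were higher in WT(hsf1). Of 14 tethering and fusion genes 5 (35.7%) were lower and 1 higher in WT(hsf1), and 4 (28.6%) lower and 1 higher in hac1∆(hsf1), so the shares lower were near those of all genes. VTI1 was at −0.33 in WT(hsf1) against WT and PEP3 at −0.26 in hac1∆(hsf1) against hac1∆. In hac1∆ against WT the counts of genes higher and lower were 0 and 3 for the hydrolases, 5 and 3 for the ATPase and 0 and 2 for the inhibitors. Without hac1∆ replicate 1, 1 of the hydrolases was lower. Where a list had a single gene called in a direction, leaving out single arrays gave 0 to 3.

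Regulators were counted against the same shares of all genes. Of 12 transcription regulators of autophagy genes, 6 (50%) were lower and 1 higher in WT(hsf1) than in WT, and 5 (41.7%) were higher and 1 lower in hac1∆(hsf1) than in hac1∆. UME6, whose product represses ATG8, was at −0.20 ± 0.06 in WT(hsf1) against WT and at 0.25 ± 0.06 in hac1∆(hsf1) against hac1∆. PHO23, a subunit of the Rpd3 deacetylase complex and also a repressor of ATG genes, was at −0.61 ± 0.07 and 0.73 ± 0.07, and RIM15, a kinase that acts on Ume6, at −0.33 ± 0.07 and 0.60 ± 0.07. The largest decrease of the list in WT(hsf1) against WT was that of GAT1, at −0.66. Its mean signal was 8.80 in hac1∆(hsf1) and 8.66 in hac1∆. GCN4, the activator of amino acid synthesis genes, was at 0.29 ± 0.06 in WT(hsf1) against WT and at −0.34 ± 0.06 in hac1∆(hsf1) against hac1∆. UME6 and GCN4 were named after their values had been seen. The part of these regulators in the levels of the autophagy genes was not tested. Of 13 genes of TORC1 and its regulators, 1 was higher and 3 (23.1%) lower in WT(hsf1), and 2 were higher and 5 (38.5%) lower in hac1∆(hsf1), with NPR3, a subunit of an inhibitor of TORC1, at 0.11 (not called) and −0.57. The gene higher in WT(hsf1) was KOG1, a TORC1 subunit, which kept its call only when the array left out was WT replicate 2 or hac1∆(hsf1) replicate 1 or 3. The 5 became 2 without hac1∆ replicate 1 or 2 or hac1∆(hsf1) replicate 3. In hac1∆ against WT 2 of the transcription regulators were higher and 4 lower.

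Genes beside the 8 members that differed by 2-fold were read after those values had been seen. Of their 16 neighbours in chromosome order, hac1∆(hsf1) had 7 (43.8%) higher and 5 (31.2%) lower than WT(hsf1), shares near the 41.7% and 35.8% of all genes. ATG19, beside ATG34 and itself one of the 41, was among the 7. So were PHM7, on the other side of ATG34, at 1.69, and GTS1, beside ATG1, at 0.82. PHM7 was at −1.49 in WT(hsf1) against WT and at 0.54 in hac1∆(hsf1) against hac1∆. GTS1 was at −0.36 and 0.21 in these comparisons, and both had the signs of their member. YPL150W, the gene before ATG5 on the same strand, was higher by 1.38 in hac1∆(hsf1) than in hac1∆ (limma adjusted p = 1.25e-06), more than ATG5 itself, but was not called in hac1∆ against WT (−0.25), where ATG5 rose. LRO1, an acyltransferase gene beside ATG3 on the opposite strand, was higher by 0.48 in hac1∆(hsf1) than in hac1∆ and was not called in WT(hsf1) against WT (0.17). MRPL15, beside ATG39, had the reverse signs of ATG39 in the comparisons with an (hsf1) strain that were called, with 0.998 in WT(hsf1) against WT and −0.28 in hac1∆(hsf1) against hac1∆.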

How the data were processed

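RNA from 12 cultures, 3 per strain, was hybridised to Affymetrix arrays. The authors deposited log2 signals made with PLIER, per the submitters' processing notes. The log base is taken from the value range, 4.84 to 12.75, and their normalization is not given in the sources used here. Array medians lay between 5.995 and 6.065, and the values were not normalized further. Of 10928 probe sets, 5498 were annotated to S. cerevisiae and covered 5449 genes. The highest-mean probe set stood for each of the 47 genes with several, none of them among the 41. Background was set from 1746 probe sets of other listed genes, and 5273 genes, 40 of the 41, were above it in at least 1 strain.

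limma 3.58.1 (R 4.3.3) fitted 1 mean per strain to all 12 arrays, with 8 residual degrees of freedom. The number of arrays limits the precision. The fit was tested on simulated data. Values in every sample are given for 9 fixed genes and, per comparison, for up to 5 called genes with the largest change each way whose replicates did not overlap. Pathway genes are named as examples from their lists and are not always those with the largest called changes. The members and lists were chosen with earlier results of these data known.

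Same-numbered arrays of hac1∆(hsf1) and hac1∆ had deviations from their strain means that correlated at 0.50, 0.15 and 0.34. The numbers may pair these strains, but arrays with different numbers were not compared, and the main calls use no pairing. Between other strains some same-numbered arrays had negative correlations. Alternatives were quantile normalization, median centring, a background filter, the lowest-mean probe set, array weights, an intensity trend, only the compared strains, a replicate block and leaving out each array. One more, the compared strains with the block for hac1∆(hsf1) minus hac1∆, was chosen after seeing the data. Promoter motifs and sequences were not analysed here.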

Additional observations from a re-analysis of the deposited data

Results flagged for a closer look

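For 37 of the 41 genes the difference of hac1∆(hsf1) from hac1∆ was not that of WT(hsf1) from WT, by the limma interaction test (adjusted p under 0.05, 3 arrays per strain). The test was called for 69.6% of all genes. Interactions above 2 were those of ATG3 (2.20) and the ER receptor gene ATG39 (2.19). Those between 1 and 2 were ATG33 (1.28), ATG32 (1.23), AMS1 (1.19), ATG34 (1.15), ATG8 (1.14), ATG26 (1.11), ATG5 (1.10) and ATG1 (1.07). ATG36 (0.95), ATG40 (0.95), ATG41 (0.91), ATG11 (0.86), ATG7 (0.81), ATG13 (0.75) and ATG2 (0.73) came next. ATG15 had a fitted value of 0.74, which is not exact, since it was under background on all 3 WT(hsf1) arrays. Among the hydrolases PRB1 was at 0.68, PRC1 at 0.65, LAP3 at 0.63, APE1 at 0.50 and PEP4 at 0.22. The other positive values were those of ATG12 (0.69), ATG31 (0.66), ATG9 (0.61), ATG14 (0.60), ATG22 (0.58), ATG21 (0.57), ATG4 (0.55), ATG20 (0.50), ATG19 (0.45), ATG18 (0.40) and ATG23 (0.24). The negative ones were ATG27 (−0.28), ATG10 (−0.36) and ATG17 (−0.38). WT replicate 2 was the highest WT array for ATG3 and ATG5, so both interactions are smaller without it. ATG5 was then at −0.32 rather than −0.55 in WT(hsf1) against WT. Groups of 3 arrays were not tested for single arrays that lie apart.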

How the results depend on the processing

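Of 4914 changes of single members under the alternatives, 4746 kept their side of the threshold, 106 were no longer called and 62 became called. None that was called in either fit reversed. Direction was not compared where neither fit made a call. The number higher in hac1∆ than in WT was 5 and became 8 without WT replicate 2, with a range of 4 to 8 on leaving out single arrays. The number higher in WT(hsf1) than in WT was 1 and became 2 with array weights, in the fit of these strains alone, and with the replicate block, since ATG17 was then also called. On leaving out single arrays it was 1 to 2. With the replicate block ATG29 was also called lower there, at −0.22. The block changed no other call of the 41 genes besides that of PRC1. Across the strains same-numbered arrays had deviations that correlated at −0.25 to 0.50. HSF1 in WT(hsf1) minus WT was at −0.08 and reversed to 0.37 with array weights and to 0.43 without WT replicate 2, the WT array with the high value. On leaving out single arrays it was −0.34 to 0.43. The interaction was not fitted with the compared strains alone, since it uses all 4. The lowest-mean probe set touched no member. ATG16, ATG15 and ATG29 are limited by signals near background.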
